A study of Mus musculus with 82 samples.

Results

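Acetylation of histone H3 at lysine 27 (H3K27ac) was compared between hematopoietic stem cells (HSCs) of old and young mice (OHSC and YHSC), across the whole genome. The study asked how the chromatin and transcripts of HSCs change with age. The study's 82 samples include mRNA-seq, ATAC-seq and ChIP-seq libraries, and the 4 H3K27ac ChIP-seq libraries of sorted HSCs, 2 from young and 2 from old mice, are described here. By the methods the mice were C57BL/6J males, 3 to 4 months old in the young group and 24 to 26 months old in the old group. The young mice came from The Jackson Laboratory and the old from the NIA Aged Rodent Colony, so age and source go together in every comparison. Their HSCs were sorted from bone marrow as lineage-negative, Sca-1+ c-kit+ cells that were CD34-, Flk2- and CD150+. Few sorted cells went into each immunoprecipitation, together with bacteria as carrier. The number of mice behind an H3K27ac library was not stated in the sources used here, so the p-values measure the spread between libraries, which may be technical. The deposited table has 41582 rows, 1 for each pair of a peak and an annotated gene, and 39557 distinct peaks, and every distinct peak was kept once. The ratio of old to young signal was computed anew from the 4 library columns.

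H3K27ac is placed by the acetyltransferases p300 and CBP and removed by histone deacetylases. It marks promoters and enhancers in use, while the same lysine carries methylation (H3K27me3) where Polycomb holds genes silent. In blood stem cells the mark has been used to map the enhancers of lineage and self-renewal genes, and HSCs of old mice are known for a larger pool, a bias toward platelets and myeloid cells, and surface proteins such as P-selectin.

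Each value is the signal of 1 library at 1 peak after the authors scaled all libraries to a fixed number of reads, so a change of the mark over the entire genome could not be read from these values. The 4 libraries were alike in summed signal, from 101863 in YHSC replicate 2 to 114689 in YHSC replicate 1. YHSC replicate 2 also had the fewest reads left after removal of duplicates according to the methods, and both OHSC libraries had more than either YHSC library. Pearson's r of the log2 signal across the 39557 peaks was 0.939 between the YHSC libraries, 0.951 between the OHSC libraries and 0.894 to 0.908 between libraries of different ages, as a description over peaks that share libraries. The label was checked on mRNA-seq of the same sort: 8 HSC markers, among them Procr, Hlf, Fgd5 and Kit, summed to 4714 to 4778 CPM (read counts scaled to the total of the library) in YHSCs and 4290 to 4740 CPM in OHSCs. The markers of B cells, T cells, erythroid cells and granulocytes each summed to at most 162 CPM in any library. The 5 macrophage markers summed to more, 436 to 461 CPM in YHSCs and 411 to 495 CPM in OHSCs.

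The 6 B cell markers summed to 82.3 to 151 CPM in YHSCs and 33.2 to 40.9 CPM in OHSCs, and the 5 megakaryocyte markers to 163 to 194 and 285 to 362 CPM, so both sets differed between the ages without overlap. In H3K27ac, Cd79a and Ms4a1 of the B cell set and Elane, Mpo, S100a8 and S100a9 of the granulocyte set had no peak. Ly6a, which encodes Sca-1, was the one HSC marker without a peak. In bulk samples such as these, more signal per cell and more cells with the signal cannot be told apart.

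Below are the 300 bases at the centre of 7 peaks that the results turn on, read from GRCm38.p6 (mm10) on the plus strand, 5′ to 3′, with each CpG in capitals. The first 4 were higher in OHSCs and are shown because they carry the largest log2 difference of a gene body, the largest ratio of the named peaks, the largest log2 difference between genes, and the promoter of P-selectin, a surface protein of old HSCs. The last 3 were lower in OHSCs and are the promoter with the largest decrease, the lowest promoter among peaks called in both ages, and the gene body with the largest decrease.
Rbm19 intragenic peak (chr5:120186395-120186694): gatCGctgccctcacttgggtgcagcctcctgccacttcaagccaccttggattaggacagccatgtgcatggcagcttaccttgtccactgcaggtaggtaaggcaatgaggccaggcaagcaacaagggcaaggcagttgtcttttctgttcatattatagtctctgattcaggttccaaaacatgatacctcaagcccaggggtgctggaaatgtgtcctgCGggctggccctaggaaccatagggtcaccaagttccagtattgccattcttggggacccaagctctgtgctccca
Nrg3 intragenic peak (chr14:38533506-38533805): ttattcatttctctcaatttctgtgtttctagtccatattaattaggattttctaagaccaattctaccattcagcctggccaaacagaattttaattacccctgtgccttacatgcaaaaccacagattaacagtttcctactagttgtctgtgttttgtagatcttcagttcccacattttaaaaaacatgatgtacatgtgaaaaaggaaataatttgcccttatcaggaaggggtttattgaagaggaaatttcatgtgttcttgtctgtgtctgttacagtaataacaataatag
chromosome 15 intergenic peak (chr15:85667469-85667768): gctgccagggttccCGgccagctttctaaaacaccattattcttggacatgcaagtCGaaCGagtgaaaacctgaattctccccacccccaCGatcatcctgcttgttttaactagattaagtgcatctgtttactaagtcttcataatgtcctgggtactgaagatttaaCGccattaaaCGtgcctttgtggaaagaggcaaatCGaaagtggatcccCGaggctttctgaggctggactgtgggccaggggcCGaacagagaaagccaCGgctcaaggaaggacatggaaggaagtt
Selp promoter peak (chr1:164115718-164116017): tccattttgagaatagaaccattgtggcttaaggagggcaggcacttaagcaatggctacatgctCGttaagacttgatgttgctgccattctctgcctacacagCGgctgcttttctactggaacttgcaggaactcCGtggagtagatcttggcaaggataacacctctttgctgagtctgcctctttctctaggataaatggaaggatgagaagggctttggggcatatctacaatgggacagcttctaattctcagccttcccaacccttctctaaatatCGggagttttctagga
Lin28b promoter peak (chr10:45469383-45469682): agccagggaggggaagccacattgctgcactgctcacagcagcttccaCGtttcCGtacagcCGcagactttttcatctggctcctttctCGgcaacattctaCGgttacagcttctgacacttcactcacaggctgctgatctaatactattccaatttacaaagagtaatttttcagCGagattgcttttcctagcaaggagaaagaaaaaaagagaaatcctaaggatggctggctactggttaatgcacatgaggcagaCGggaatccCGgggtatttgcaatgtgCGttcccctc
Igf2bp2 promoter peak (chr16:22162028-22162327): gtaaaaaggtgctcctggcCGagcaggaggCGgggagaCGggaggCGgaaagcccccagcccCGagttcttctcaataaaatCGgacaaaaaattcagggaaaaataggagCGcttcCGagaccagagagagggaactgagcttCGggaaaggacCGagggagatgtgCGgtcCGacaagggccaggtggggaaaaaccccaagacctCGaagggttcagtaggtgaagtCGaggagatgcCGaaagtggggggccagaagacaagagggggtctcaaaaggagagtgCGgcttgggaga
Btrc intragenic peak (chr19:45527985-45528284): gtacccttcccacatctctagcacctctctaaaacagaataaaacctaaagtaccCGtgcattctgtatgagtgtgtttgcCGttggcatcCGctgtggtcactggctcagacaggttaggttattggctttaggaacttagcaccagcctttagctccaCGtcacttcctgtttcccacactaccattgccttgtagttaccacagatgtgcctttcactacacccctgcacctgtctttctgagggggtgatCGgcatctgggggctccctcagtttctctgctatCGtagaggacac

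The CpG count of these windows ran from 0 at the Nrg3 peak to 16 at the Igf2bp2 promoter, and the GC content from 33.7% to 57.3% at the same pair. The Rbm19 and Nrg3 windows thus had few CpGs, at most 2, and the Lin28b and chromosome 15 windows were intermediate, at 9 and 10.

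H3K27ac differed between the ages mostly toward higher signal in OHSCs, and mostly away from promoters. Limma on log2(signal + 0.5) called 1000 peaks higher and 164 lower in OHSCs at a Benjamini-Hochberg adjusted p below 0.05, 2.53% and 0.415% of the 39557 tested. The smallest p that an exact permutation of 2 against 2 libraries allows for a single peak is 0.333, so all calls rest on the spread that limma pools over peaks. By the fold rule of the study (ratio of the means above 1.5 and of each OHSC to each YHSC library at least 1.2, with no test), 3602 peaks were higher and 898 lower, 9.11% and 2.27%. Both rules called 1100 peaks in the same direction, 94.5% of the limma calls and 24.4% of the fold rule's.

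Among 13680 peaks in gene bodies, 442 were called higher and 55 lower. Among 12221 intergenic peaks the counts were 418 and 39, so that 3.23% and 3.42% of these classes were higher. Promoter peaks, 13392 in all, split more evenly, with 134 higher (1.00%) and 70 lower (0.523%). Of the 264 peaks at gene ends, 6 were higher and 0 lower.

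A peak entered the table because it was called in at least 1 age, and this bears on the counts. Of the peaks called higher, 713 had been called in OHSCs only, and of those called lower, 88 in YHSCs only, groups in which a difference was built in by the peak calls. The 25823 peaks called in both ages hold 285 of the higher and 76 of the lower calls. Fitted on their own, they gave 203 higher and 40 lower peaks. Within them, promoters had 85 higher and 51 lower calls of 11776, gene bodies 90 and 10 of 7099, and intergenic peaks 108 and 15 of 6766. By the fold rule, 3002 of the 3602 higher peaks had been called in OHSCs only. Peaks called in both ages gave 598 higher and 242 lower by that rule (71.2% higher).

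The split between higher and lower peaks depended on the scaling. Scaled to the same median signal, which moved the median log2 difference of all peaks from 0.051 to -0.026, there were 828 peaks called higher and 653 called lower (55.9% higher, against 85.9% as deposited). Quantile normalization gave 800 and 507 (61.2% higher). Of the peaks past the fold rule 80.0% were higher as deposited, and the same median signal gave 2773 higher and 1437 lower peaks (65.9% higher), and quantile normalization 2017 and 1813 (52.7% higher). With limma, without YHSC replicate 1, 4249 peaks were higher and 560 lower, and without YHSC replicate 2, 1639 and 1332. Without OHSC replicate 1 the counts were 212 and 26, and without OHSC replicate 2, 85 and 6.

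The difference also followed the level of the mark. In the 7912 peaks with the lowest mean signal, 20% of all, the log2 ratio (OHSC over YHSC) had a median of 0.31 (0.20 to 0.40 over the 4 pairings of an OHSC with a YHSC library), and in the 20% with the highest it was -0.041 (-0.13 to 0.065). Among peaks called in both ages the lowest and highest 20% were at 0.025 and -0.046, and the range over the pairings included 0 for both. The medians of the 19 autosomes lay between 0.044 and 0.074, and that of the 760 peaks on the X chromosome was -0.027. On the X chromosome, promoters had a median of -0.068 and other peaks one of 0.077, against -0.028 and 0.13 on the autosomes. Over the pairings the median of the X chromosome ran from -0.10 to 0.097 and that of the autosomes from -0.046 to 0.18. Both come from the same libraries, and the difference between X chromosome and autosomes was not tested.

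**Figure D1:**
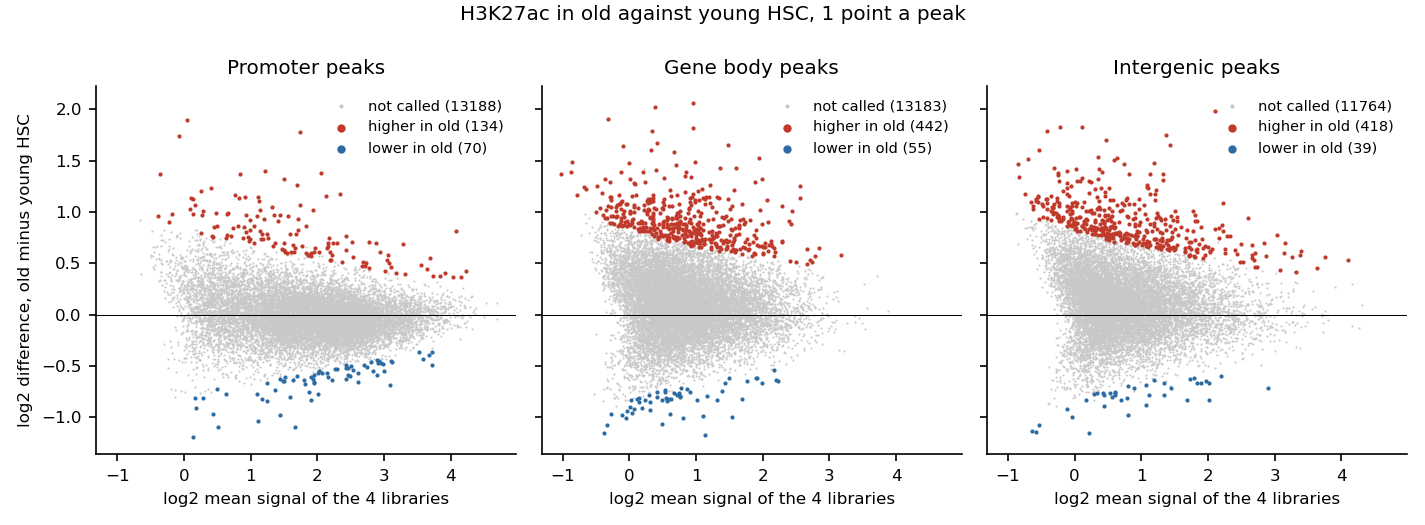
The log2 difference of the H3K27ac signal between OHSCs and YHSCs (y axis) is plotted against the log2 of the mean signal of the 4 libraries (x axis), with 1 point for each promoter, gene body and intergenic peak and colours for the limma calls. Red points, higher in OHSCs, are 442 in gene bodies and 418 between genes but 134 at promoters, and the 164 lower peaks, of which 70 are promoters, reach down to a log2 difference of -1.2.

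The largest log2 difference of the genome lay inside Rbm19, a gene for an RNA-binding protein of ribosome assembly, at chr5:120186157-120186934. Its signal was 0.540 and 0.349 in the YHSC libraries and 3.03 and 3.87 in the OHSC libraries (log2 difference 2.06, standard error 0.21, adjusted p = 5.81e-07). The next lay inside Trpc1, which encodes a cation channel of the TRP family and is among the genes known to rise in old HSCs. The Trpc1 peak (chr9:95742716-95743363) had 0.201 and 0.218 in the YHSC libraries and 2.67 and 2.14 in the OHSC libraries (log2 difference 2.03, standard error 0.24, adjusted p = 2.93e-06), and it overlapped H3K27me3 in YHSCs. At both peaks the libraries of the 2 ages did not overlap, which the choice of the peaks with the largest differences required.

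The third was an intergenic peak on chromosome 15 (chr15:85667326-85667913), 36154 bp from the nearest annotated start, that of Lncppara. Its YHSC signal was above that of the first 2, although it was called as a peak in OHSCs only, with 1.51 and 1.36 in the YHSC libraries and 6.58 and 7.72 in the OHSC libraries (log2 difference 1.98, standard error 0.16, adjusted p = 4.95e-09). A peak inside Nrg3, the gene of the growth factor neuregulin 3, had the largest ratio of the named peaks, 35.6, over a young signal close to 0. It had 0.0496 and 0.0376 in the YHSC libraries and 1.34 and 1.77 in the OHSC libraries (log2 difference 1.91, standard error 0.28, adjusted p = 9.31e-05). The ATAC region at the Nrg3 peak rose by 3.60 on the log2 scale and that at the Rbm19 peak by 3.45. Among intergenic peaks, those on chromosome 11 (chr11:92605879-92607369) and on chromosome 14 (chr14:38244971-38245580) followed, with log2 differences of 1.83 and 1.82 and YHSC signals of at most 0.246.

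The promoters with the largest log2 differences were those of Mir7094-2, Fam169a and Mir7094-1. Mir7094-2 and Mir7094-1 are microRNA genes within the immunoglobulin heavy chain locus on chromosome 12. By name they are copies of one microRNA gene, and how this bears on a signal made from uniquely mapped reads was not tested. The Mir7094-2 peak had 0.105 and 0.189 in the YHSC libraries and 1.73 and 2.08 in the OHSC libraries (log2 difference 1.90, standard error 0.26, adjusted p = 2.82e-05), and at Mir7094-1 the log2 difference was 1.74 (adjusted p = 0.000185). Fam169a had 2 promoter peaks, both called higher. The larger difference was at a peak with 1.61 and 0.921 in the YHSC libraries and 5.49 and 5.39 in the OHSC libraries (log2 difference 1.78, standard error 0.19, adjusted p = 6.36e-07), while the ATAC region at the Fam169a promoter differed by 0.29 and was not called. All 9 of these peaks had been called in OHSCs only.

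Promoters of better known age genes showed smaller differences. At the Selp promoter, the gene of P-selectin, the adhesion receptor of platelets and endothelium, the signal was 1.79 and 1.05 in the YHSC libraries and 4.31 and 4.14 in the OHSC libraries (log2 difference 1.33, adjusted p = 6.06e-05, limma). The second Selp peak, inside the gene, did not differ beyond its spread (-0.045, adjusted p = 0.926). Osmr encodes the receptor subunit for oncostatin M. Its 1 peak, at the promoter, had 1.29 and 1.28 in the YHSC libraries and 2.79 and 3.45 in the OHSC libraries (log2 difference 1.02, adjusted p = 0.00162, limma), and it carried H3K27me3 in YHSCs as well. The ATAC region at the Selp promoter gained accessibility, by 0.60 on the log2 scale. For Selp and Osmr all OHSC values lay above all YHSC values, and both promoters were called as peaks in both ages.

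Decreases were smaller. The largest was at the promoter of Lin28b, which encodes an RNA-binding protein that blocks let-7 microRNAs and is characteristic of fetal blood stem cells. The peak (chr10:45468850-45470217) had 2.01 and 1.45 in the YHSC libraries and 0.393 and 0.543 in the OHSC libraries (log2 difference -1.2, standard error 0.24, adjusted p = 0.00323). A peak inside Btrc, the gene of the ubiquitin ligase subunit beta-TrCP, fell from 3.63 and 2.89 to 1.16 and 1.16 (log2 difference -1.18, standard error 0.19, adjusted p = 0.000299). Csmd1, a gene for a membrane protein with complement-binding domains, had a peak with 1.25 and 1.25 in the YHSC libraries and 0.379 and 0.200 in the OHSC libraries (log2 difference -1.16, adjusted p = 0.0114, limma). At these 3 peaks no OHSC library reached the lower YHSC library, which the choice of the peaks required as well.

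Igf2bp2, whose product binds and stabilizes mRNAs, had the largest decrease among promoter peaks called in both ages. Its signal was 5.24 and 3.75 in the YHSC libraries and 2.03 and 1.61 in the OHSC libraries (log2 difference -1.10, standard error 0.18, adjusted p = 0.000388), and no other of the 9 lower peaks named here for their size had a higher YHSC mean. The promoter of Rps4l, which RefSeq lists as a transcribed pseudogene, had 2.21 and 2.02 in the YHSC libraries and 0.836 and 0.622 in the OHSC libraries (log2 difference -1.09, adjusted p = 0.00272, limma). The signal is from uniquely mapped reads, and how a parent gene bears on it was not tested. Ppa2, the mitochondrial pyrophosphatase, was the one gene with 2 peaks called lower, and the larger of these differences was -1.07. The ATAC regions at the Lin28b, Btrc, Csmd1, Igf2bp2, Rps4l and Ppa2 peaks all lost accessibility, with log2 fold changes of -0.75 to -2.41. Between genes, the largest decreases lay on chromosome 15 (chr15:31279611-31280318, -1.16), chromosome 10 (chr10:50312409-50312938, -1.14) and chromosome 6 (chr6:31803390-31803965, -1.13), and at the last 1 OHSC library had no signal. The ATAC region at the chromosome 15 peak differed by -0.32 and was not called, that at the chromosome 10 peak lost accessibility (-1.34), and the chromosome 6 peak had no tested region.

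**Figure D2:**
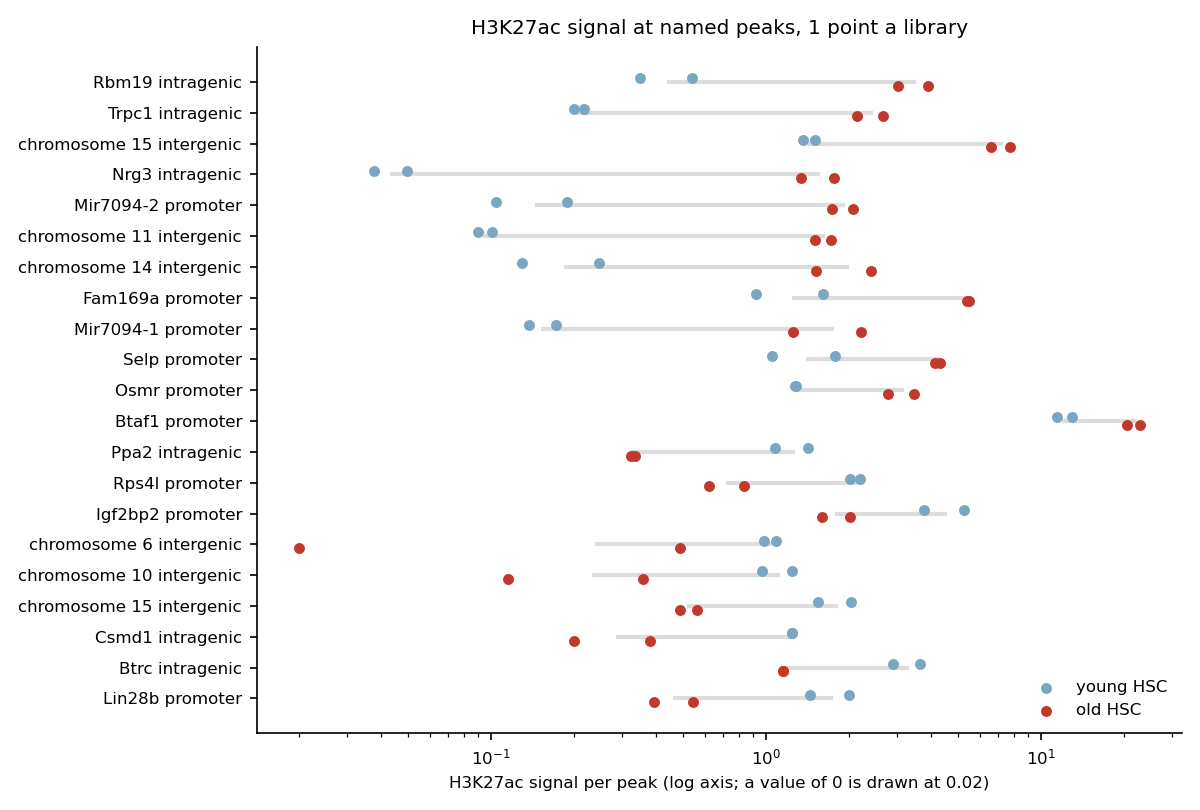
H3K27ac signal (x axis, log scale) of each library at the peaks with the largest differences and at the Selp, Osmr and Btaf1 promoters (y axis), with blue points for YHSCs, red points for OHSCs and a grey line between the means. The 2 colours do not overlap at any of these peaks, which for those with the largest differences the choice of peaks fixes, and the young signals of Nrg3, Mir7094-1 and Mir7094-2 reach at most 0.189.

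Higher peaks came in runs. With gaps of at most 50000 bp between neighbours, 290 of the 1000 higher peaks formed 124 runs of 2 or more, and 10 runs held at least 4. The lower peaks formed 6 runs, the longest of 3 peaks. Runs follow the spacing of peaks in the table, and how many would be seen by chance was not tested. The genes named here from the runs were chosen after their values were seen.

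At Bmpr1a, the type I receptor for bone morphogenetic proteins, all 4 peaks were higher, with ratios of 1.77 to 3.02. Around Wwtr1, which encodes the Hippo pathway coactivator TAZ, 4 of 5 peaks were higher and the median ratio was 3.00. The neighbourhood of Fam169a, which includes peaks annotated to no gene, had 4 of 4, that of Morrbid, a long noncoding RNA that represses the death gene Bcl2l11 in myeloid cells, 4 of 7, and that of Cysltr2, a leukotriene receptor, 4 of 6. The mRNA of these 5 genes rose, with log2 fold changes of 2.58 for Bmpr1a, 2.16 for Wwtr1, 1.93 for Fam169a, 1.73 for Morrbid and 1.78 for Cysltr2 (edgeR adjusted p from 4.85e-16 to 9.2e-05). Over all 10 runs, 17 genes at or next to the peaks could be tested in mRNA, of which 13 rose by more than 1.5-fold, against 4.69% of all genes tested in mRNA. The others were Cdk17 (-0.092, adjusted p = 0.0997, edgeR), Dctn4 (0.034, adjusted p = 0.708), Kif11, and Smim3 (0.51, adjusted p = 5.27e-05), which stayed below 1.5-fold. A run over H2-T3 and Gm8909, members of the MHC class I family with near-identical copies, had 4 of 6 higher peaks. The H3K27ac signal is from uniquely mapped reads, and how such copies bear on it or on the mRNA counts was not tested. This run gave 5 of the 13 genes that rose, and without it 8 of 12 rose.

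The longest run covered Ide, the gene of insulin-degrading enzyme, on chromosome 19. From 37237870 to 37376729 all 10 peaks had a higher mean in OHSCs and 8 were called, with ratios of 1.37 to 3.37 (median 1.92), whether they lay in Ide, between genes or at the Kif11 promoter (1.65). The flanking promoters of March5 (0.797) and Hhex (0.945) were not called. On the far side of March5, the promoters of Btaf1, a regulator of the TATA-binding protein, and of its neighbour Fgfbp3 rose as well. The Btaf1 promoter had 12.9 and 11.4 in the YHSC libraries and 22.9 and 20.6 in the OHSC libraries (log2 difference 0.81, standard error 0.093, adjusted p = 2.69e-06), and Fgfbp3 had 3.59 and 3.61 in YHSCs and 5.88 and 6.45 in OHSCs (log2 difference 0.70, adjusted p = 0.00471, limma).

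No gain of accessibility was called with H3K27ac in this interval. The 8 tested ATAC regions at the 10 peaks of the run had log2 fold changes of -0.66 to 0.17 of which none was called gained and 1, inside Ide, was called lost, and that of the Btaf1 promoter was -0.44. The mRNA of Ide rose by 0.89 on the log2 scale (adjusted p = 2.46e-07, edgeR), from a median of 186 CPM (163 to 218 in 4 libraries) to 353 CPM (319 to 378 in 8). Fgfbp3 mRNA rose by 0.83 on the log2 scale. Btaf1 mRNA differed by 0.53 (adjusted p = 0.000807, edgeR), less than the 1.5-fold needed for a call. Kif11 (-0.13, adjusted p = 0.584) and March5 (0.0005, adjusted p = 0.996) did not pass the test. No input DNA was analysed here, so the number of genomic copies of this interval in the mice of either age was not tested, and age and the source colony of the mice cannot be told apart.

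Summed over the peaks annotated to each gene, the signal of 236 genes was higher and that of 56 lower in OHSCs (limma, adjusted p below 0.05), 1.53% and 0.364% of 15391 genes. The sum weights strong peaks, and 9559 of the genes had 1 peak. With promoter peaks alone, 74 genes were higher and 20 lower, and with peaks called in both ages alone, 70 and 20. Scaled to the same median signal, 272 genes were higher and 587 lower, so the predominance of higher genes turned around under this scaling. The median log2 difference of all genes moved from 0.005 to -0.080 with it. Without a library the counts were 1404 and 174 (YHSC replicate 1), 392 and 818 (YHSC replicate 2), 46 and 7 (OHSC replicate 1) and 22 and 0 (OHSC replicate 2). Of the 61 called genes named in the text with their summed signal, 15 kept the call without every one of the 4 libraries in turn, and so did 12 of the 21 called peaks that were named for the largest differences or lay at the promoters of Selp, Osmr and Btaf1.

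Gpr158, Ntrk3 and Cntn1 were among the 10 genes with the largest increases, and Ntf3 among the largest with a rise in both H3K27ac and mRNA. Gpr158, a G protein-coupled receptor of neurons, had 0.931 and 0.614 in YHSCs and 3.45 and 4.24 in OHSCs over 3 peaks (log2 difference 1.78, adjusted p = 4.69e-09, limma). Ntrk3, the receptor for neurotrophin-3, had 1.54 and 1.62 in YHSCs and 4.94 and 4.68 in OHSCs (log2 difference 1.35), and the gene of its ligand, Ntf3, 2.19 and 1.95 in YHSCs and 5.31 and 5.48 in OHSCs (1.2). Cntn1, a neural cell adhesion molecule, had 1.82 and 1.57 in YHSCs and 5.02 and 5.04 in OHSCs (1.34). In these 4 genes the libraries of the ages did not overlap, which for Gpr158, Ntrk3 and Cntn1 the choice of genes required.

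The mRNA of these genes did not follow in the same way. Ntf3 mRNA rose by 4.51 on the log2 scale and Cntn1 by 2.23, while Ntrk3 (0.066, adjusted p = 0.942, edgeR) and Gpr158 (-0.23, adjusted p = 0.828) did not pass the test, at means of at most 2.41 CPM. The other 7 of the 10 largest were the microRNA genes Mir7094-1 and Mir7094-2, Acsm1, an acyl-CoA synthetase (1.79), the long noncoding RNA 4930543E12Rik (1.72), Tmprss11f, a membrane serine protease (1.67), Cyp2b10, a cytochrome P450 (1.47), and Gm14137 (1.39). Of these, 4930543E12Rik had a call in mRNA, a log2 fold change of 3.56.

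Chrm3, the muscarinic M3 receptor, and Zbtb20, a zinc finger repressor, had the most peaks called higher, 6 of 16 and 6 of 20. They were ahead of Bmpr1a with 4 of 4, which tied in number with Kcnb2 at 4 of 6. Chrm3 mRNA rose from 3.94 ± 0.553 CPM (SD, n = 4) in YHSCs to 23.7 ± 4.21 CPM (SD, n = 8) in OHSCs (log2 fold change 2.59), and Zbtb20 mRNA, at 218 and 241 CPM, differed by 0.15, short of 1.5-fold. In all, 498 genes had a higher peak, 66 had 2 or more, 131 had a lower peak and 8 had both.

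H1f5, Hist1h2bp and Hist1h2an were among the 10 genes with the largest decreases. The linker histone gene H1f5 had 5.09 and 4.76 in YHSCs and 2.53 and 2.58 in OHSCs (log2 difference -0.83, adjusted p = 0.000677, limma), and Hist1h2bp and Hist1h2an, which share 1 peak, 3.15 and 3.17 in YHSCs and 1.33 and 1.79 in OHSCs (-0.84). H1f5 mRNA fell by 1.40 on the log2 scale (adjusted p = 0.000496, edgeR) from a low level, 2.37 CPM in YHSCs and 0.897 CPM in OHSCs.

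The other lower genes with the largest differences were Rps4l (-1.09), Map10, a microtubule-binding protein (-0.97), Slfn14, an RNA-cleaving schlafen (-0.91), Hs3st3b1, a heparan sulfate sulfotransferase (-0.86), Ptgdr2, a prostaglandin D2 receptor (-0.83), Skida1 (-0.82) and Fam162b (-0.81). Rps4l, Map10 and Skida1 fell in mRNA as well, by 1.55, 1.18 and 0.95 on the log2 scale. Hs3st3b1 (0.10) and Ptgdr2 (-0.047) did not pass the test in mRNA. Hs3st3b1 was called on the sum of 2 peaks of which neither was called alone. Among genes by their number of lower peaks, Ppa2 was followed by many with 1, of which A930004D18Rik (-0.74) was called on its sum and Acvr1, a BMP and activin receptor (-0.14), was not.

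Gene lists were read by their counts and medians, against 0.005 for the median of all genes and against 1.53% of all genes called higher and 0.364% lower. In mRNA 4.69% of all tested genes were called higher and 2.83% lower, the shares to set beside the mRNA counts of each list. In lists of this size a count of 0 or 1 in H3K27ac lies within 1 gene of its shares. The list of genes that rise in aged HSCs in earlier work had 15 of 38 members called higher and 0 lower, with a median log2 difference of 0.32 (0.24 to 0.46 over the 4 pairings of libraries) and 0.195 with peaks called in both ages. This list was written with results of these data known and is not independent evidence of its direction. Its called members include Mt1 and Mt2, the metallothioneins that bind zinc and copper, Plscr2, a phospholipid scramblase, Wwtr1, Il1rapl2, a receptor of the interleukin-1 family, and Clu, the chaperone clusterin.

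Mt2 had 1.14 and 1.15 in YHSCs and 2.73 and 3.60 in OHSCs (log2 difference 1.15), Plscr2 4.57 and 5.12 in YHSCs and 10.1 and 9.55 in OHSCs (0.95), and Wwtr1 10.3 and 8.40 in YHSCs and 19.9 and 19.5 in OHSCs (1.04). The ages did not overlap in any of them. Itgb3, Cd38, Gda, Tm4sf1, Neo1, Rorb, Selp, Osmr, Trpc1, Mt1, Il1rapl2 and Clu made up the rest of the 15, at log2 differences of 0.49 to 1.14. With peaks called in both ages alone, Il1rapl2 was at -0.050 and was not called. Egr1 (-0.37) and Slc22a3 (-0.30) were the lowest members and were not called. In mRNA, 30 of 38 members were called higher and 2 lower, against 4.69% and 2.83% of all genes.

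Of the megakaryocyte and platelet genes, 4 of 28 with a peak were called higher, and 0 lower. They were Selp, the pair Itga2b and Itgb3, which form the platelet fibrinogen receptor, and Plek, the platelet protein pleckstrin. Itga2b had 6.78 and 5.49 in YHSCs and 9.14 and 10.0 in OHSCs (log2 difference 0.61, adjusted p = 0.00344, limma), and the lowest members were F13a1 (-0.37) and Cd36 (-0.16), neither called. The list's median was 0.12 (0.017 to 0.31 over pairings), and in mRNA 8 of 28 members were higher and 2 lower, against the same shares of all genes.

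The early response genes of the AP-1 group, induced within minutes by stress or growth signals, had 5 of 27 called higher and 0 lower. They were Fos (0.53), Fosl2 (0.58) and Junb (0.61), subunits of AP-1, and the nuclear receptors Nr4a1 (0.71) and Nr4a2 (0.42). Nr4a1 had 4.03 and 4.39 in YHSCs and 7.04 and 7.36 in OHSCs, without overlap. Fosl2 mRNA passed the test (0.63), and the mRNA of Fos (0.63), Junb (0.26), Nr4a1 (-0.033) and Nr4a2 (0.51) did not. The lowest members were Egr1 (-0.37) and Bach1 (-0.29), and the median of the list was 0.063.

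Genes of synapses and neural adhesion had 4 of 28 called higher, 0 lower and a median of 0.23 (0.0032 to 0.44 over pairings). The 4 were Nrg3 (1.32), Grm7, a glutamate receptor (0.88), Nlgn1, a neuroligin (0.56), and Lsamp, an adhesion molecule (0.51), and none of the 28 tested members was called in mRNA. Tenm3 (-0.35) and Cntn5 (-0.31) were the lowest. In the cytokine receptor list, 2 of 29 members were higher, Osmr and the kinase gene Jak3 (0.53), and the lowest were Socs2 (-0.41) and Prlr (-0.23). In the TGF-beta and BMP list, Bmpr1a (1.18) was the 1 called member of 24, followed by Smad4 (0.36), with Acvr2a (-0.26) and Smad2 (-0.17) lowest. In the adhesion list, Cldn5, a tight junction claudin, was the 1 called member of 33, with 1.49 and 1.37 in YHSCs and 3.20 and 3.16 in OHSCs (0.93), ahead of the integrin gene Itgal (0.56), and Pecam1 (-0.18) and Arhgap15 (-0.17) were lowest.

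In the other 10 lists no member was called by limma on its summed signal. Of their single peaks, limma called 3 higher and 1 lower in the self-renewal list, 1 and 1 in the lymphoid list, and 1 higher in each of the acetylation and cell cycle lists. The 30 self-renewal genes had a median of 0.090, with the homeobox gene Hoxb4 (0.43) and Fgd5 (0.41) highest and Meis1 (-0.21) and Zfp36l2 (-0.20) lowest. The 29 lymphoid genes had a median of 0.079, from Ccr9 (-0.40) and the chromatin organizer Satb1 (-0.37) to Notch1 (0.38) and Id2 (0.48), while 9 of 28 fell and 3 rose in mRNA, where 2.83% of all genes fell and 4.69% rose. The 12 erythroid genes had a median of 0.078, with Ank1 (0.20) and Epor (0.19) highest and Sptb (-0.12) among the lowest, while 6 of 12 fell in mRNA, against 2.83% of all genes. The 16 myeloid genes had a median of 0.12, with Ms4a3 (0.55) and Cd14 (0.54) highest and Ltf (-0.22) and Csf1r (-0.075) lowest.

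The interferon list had a median of -0.035, between Irf1 (-0.37) and Mx1 (-0.31) and the other end at Isg15 (0.21) and Usp18 (0.32). The NF-kB and Toll-like receptor list had -0.016, between Nfkb1 (-0.21) and Nfkbia (-0.19) and Il1r1 (0.26) and Tlr6 (0.30). The writers, erasers and readers of the mark had -0.056, with the acetyltransferase gene Crebbp (-0.27) and Hdac8 (-0.22) lowest and Brd2 (0.22) and Kat2a (0.31) highest. The cell cycle list had -0.089, with E2f1 (-0.72, adjusted p = 0.0846, limma) and Mycl (-0.44) lowest and Cdk6 (0.28) and Cdkn1a (0.34) highest. Ribosomal protein genes had a median of 0.058 and ran from Rpl7 (-0.19) to Rpl24 (0.24). Lysosome and autophagy genes had a median of 0.010, from the protease gene Ctss (-0.32) and Atp6v1h (-0.28) to Lamp2 (0.19) and Ulk1 (0.23). In mRNA the genes called higher and lower were 2 and 0 of 30 tested in the self-renewal list, 4 and 1 of 15 in the myeloid list, 4 and 1 of 25 in the cell cycle list, 1 and 1 of 30 in the interferon list, 1 and 1 of 25 in the NF-kB list, 0 and 0 of 26 in the acetylation list, 0 and 0 of 45 in the ribosomal list and 0 and 1 of 29 in the lysosome list. Those of the lists above were 5 and 4 of 29 (cytokine receptor), 2 and 2 of 24 (TGF-beta), 3 and 1 of 33 (adhesion) and 2 and 2 of 25 (AP-1). With 2 libraries an age, the range of a list's median over the pairings spanned 0.13 to 0.44. The median of all genes moved with the libraries too, from -0.068 without YHSC replicate 2 to 0.082 without YHSC replicate 1. The range over pairings is therefore not the spread of a list's distance from all genes, which was not tested. Scaling to the same median signal moved the median of all genes to -0.080 and quantile normalization moved it to -0.022, so the sign of a list median near 0 follows the scaling. With the same median signal the AP-1 (-0.0073), adhesion (-0.039), ribosomal (-0.029) and lysosome (-0.079) medians turned negative, and with quantile normalization the lymphoid (-0.00054) and lysosome (-0.019) medians turned negative and the interferon median (0.0023) positive. Those of the aging (0.23 and 0.24), megakaryocyte (0.035 and 0.065) and synaptic lists (0.15 and 0.079) stayed positive under both. So did those of the myeloid (0.043 and 0.042), cytokine receptor (0.032 and 0.097), self-renewal (0.0058 and 0.078), TGF-beta (0.0092 and 0.053) and erythroid lists (0.0089 and 0.015).

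**Figure D3:**
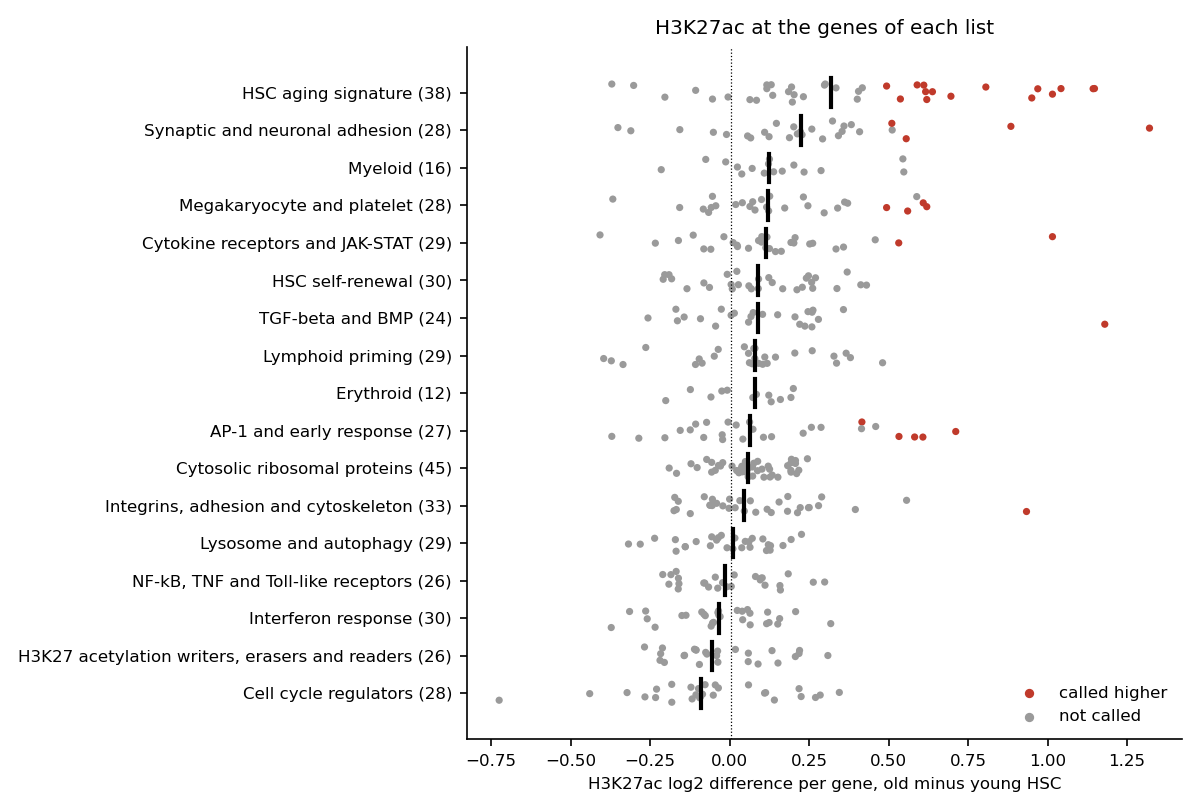
The log2 difference of the summed H3K27ac signal (x axis) is shown for every member with a peak of the 17 gene lists (y axis, number of members in brackets), with red points for genes called higher, black bars for list medians and a dotted line at the median of all genes. The aging list, at a median of 0.32, holds 15 red points, the AP-1 list 5, the megakaryocyte and the synaptic lists 4 each, and 10 lists hold none.

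Motifs of Batf, Spi1 and Spib had been of interest in the accessible regions of these cells. Batf, an AP-1 family member, had 3 peaks with 8.71 and 7.85 in YHSCs and 8.46 and 9.45 in OHSCs in sum (log2 difference 0.11, adjusted p = 0.811, limma), Spi1, the gene of PU.1, 7.43 and 7.05 in YHSCs and 7.39 and 8.50 in OHSCs (0.12, adjusted p = 0.78), and Spib 6.99 and 5.96 in YHSCs and 8.12 and 8.82 in OHSCs (0.37, adjusted p = 0.155). None passed the test. Spib mRNA fell by 4.93 on the log2 scale, so its mark and its mRNA had different signs, and the B cell markers, which fell with it, were given above. Mfsd1, a lysosomal transporter, had 1 promoter peak with 3.21 and 2.53 in YHSCs and 2.24 and 2.39 in OHSCs (-0.25, adjusted p = 0.609).

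At the level of genes, differences in H3K27ac and in mRNA went the same way wherever both were called. Of the 236 genes with higher H3K27ac, 200 could be tested in mRNA, and 106 of these (53%) rose by more than 1.5-fold while 0 fell. The mRNA-seq libraries (4 YHSC, 8 OHSC) are separate samples that played no part in the H3K27ac calls, and 4.69% of all tested genes rose and 2.83% fell. By the methods the HSCs for mRNA-seq came from pooled young mice or from individual old mice, so the SDs of the ages are not like measures. Of the 50 tested genes with lower H3K27ac, 17 (34%) fell and 0 rose. From the side of mRNA, 721 genes with a peak rose and 14.7% of them had a higher call in H3K27ac, while 432 fell and 3.94% had a lower one. The median H3K27ac log2 difference was 0.26 for the genes that rose, -0.12 for those that fell and -0.0057 for the others. Across 13811 genes, Pearson's r of the 2 differences was 0.359 and Spearman's rho 0.239, as a description over genes.

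The largest H3K27ac differences among genes that rose in both were 4930543E12Rik, Cntn1, Kcnb2, Gstm2 and Ntf3. Kcnb2, a voltage-gated potassium channel, had 4.93 and 4.49 in YHSCs and 11 and 12.8 in OHSCs over 6 peaks, 4 of them called higher, and its mRNA went from 0.780 ± 0.330 CPM (SD, n = 4) in YHSCs to 17.1 ± 5.00 CPM (SD, n = 8) in OHSCs (log2 fold change 4.45, adjusted p = 2.9e-06, edgeR). Gstm2, a glutathione S-transferase, had 0.375 and 0.828 in YHSCs and 1.82 and 2.28 in OHSCs at its 1 peak and 14.7 ± 2.04 CPM (SD, n = 4) in YHSCs and 103 ± 13.3 CPM (SD, n = 8) in OHSCs of mRNA (2.81). Bmpr1a mRNA went from 6.76 ± 0.852 CPM (SD, n = 4) in YHSCs to 40.5 ± 6.99 CPM (SD, n = 8) in OHSCs (2.58), Selp mRNA rose by 3.33, Osmr by 3.39 and Cldn5 by 3.07 on the log2 scale. In each of these the fold of mRNA was larger than that of H3K27ac.

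Among genes that fell in both, Rps4l, Map10, H1f5, Skida1 and Adgra2 had the largest H3K27ac differences. Rps4l mRNA went from 23.8 ± 1.49 CPM (SD, n = 4) in YHSCs to 8.11 ± 2.33 CPM (SD, n = 8) in OHSCs (log2 fold change -1.55, adjusted p = 4.56e-06, edgeR). Adgra2, an adhesion receptor that takes part in Wnt7 signalling, had 7.66 and 7.56 in YHSCs and 4.49 and 3.86 in OHSCs in H3K27ac (-0.80) and 6.49 ± 0.801 CPM (SD, n = 4) in YHSCs and 2.39 ± 0.426 CPM (SD, n = 8) in OHSCs in mRNA (-1.44). No gene was called in opposite directions in the 2 readouts. Of the higher genes with mRNA tested, 94 had no mRNA call, Gpr158, Nrg3, Ntrk3 and Acsm1 among them, at means of at most 2.41 CPM in OHSCs. Others without a call were well expressed, with means in OHSCs of 367 CPM for Jak3, 241 CPM for Zbtb20 and 134 CPM for Btaf1, all with differences of less than 1.5-fold.

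**Figure D4:**
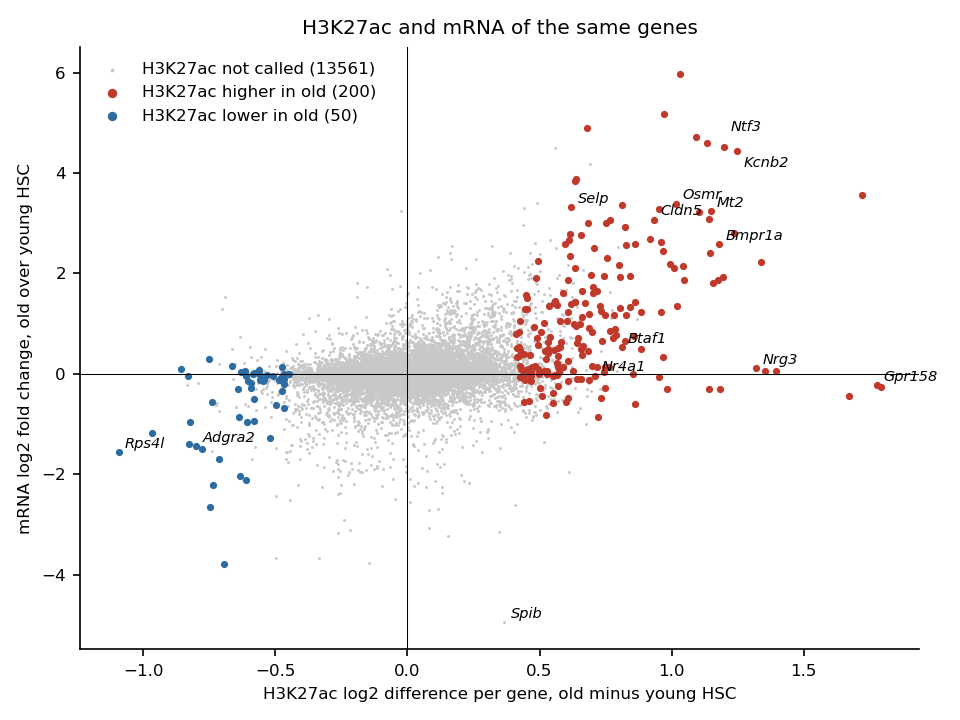
Each point is a gene, placed by its H3K27ac log2 difference (x axis) and its mRNA log2 fold change (y axis) between OHSCs and YHSCs, with red and blue points for genes called higher and lower in H3K27ac. Red points spread upward, 106 of 200 with a rise in mRNA above 1.5-fold that passed the test, and Gpr158 and Nrg3 lie to the right near 0 on the mRNA axis.

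Accessibility moved with the mark at many of the called peaks. ATAC-seq, in which a transposase cuts open chromatin, was analysed in 4 YHSC and 4 OHSC libraries, those whose columns a sample label named. A further 4 OHSC libraries were not used here. Over all tested regions 10.1% gained and 2.9% lost accessibility (edgeR, fold above 1.5, adjusted p below 0.01). Of the 850 higher H3K27ac peaks that overlapped a tested region, 435 (51.2%) lay on a gained and 3 on a lost region, against 5.72% and 2.33% of the peaks not called. Of the 144 lower peaks, 33 (22.9%) lay on a lost and 0 on a gained region. The median ATAC log2 fold change was 0.61 at higher, -0.29 at lower and -0.073 at other peaks.

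Away from promoters, 55.9% of higher peaks lay on a gained region, and at promoters 23.8%. Restricted to peaks called in both ages, the share was 26.0% (72 of 277), against 2.37% of uncalled peaks there. Kcnb2 is an example with both: the regions at its 4 higher peaks gained accessibility by 1.46 to 2.86 on the log2 scale. At Bmpr1a the regions of the 2 gene body peaks gained accessibility while that of the promoter, 0.081, was not called, although all 4 peaks were higher in H3K27ac. At the Osmr promoter the ATAC difference of 0.50 was not called.

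**Figure D5:**
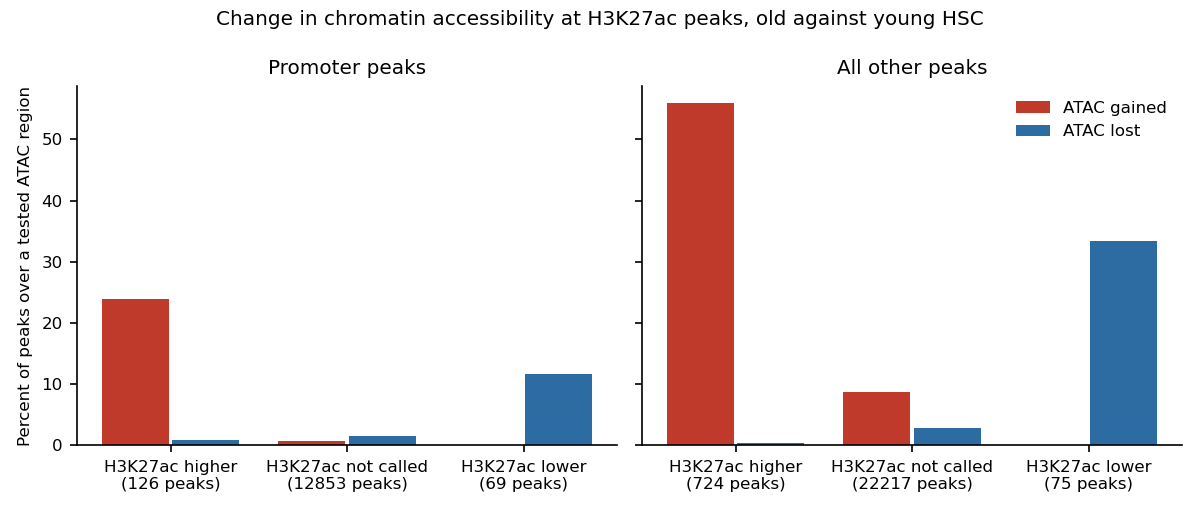
Bars give the percent of H3K27ac peaks over a tested ATAC region that gained (red) or lost (blue) accessibility in OHSCs, for promoter peaks (left) and all others (right) that were higher, not called or lower in H3K27ac. Away from promoters 55.9% of the higher peaks gained and 33.3% of the lower peaks lost accessibility.

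Other marks under the called peaks differed by direction. Of the higher peaks, 32.6% overlapped an H3K4me3 peak of YHSCs, the mark of active and poised promoters, against 70.7% of the lower and 64.7% of the other peaks. Away from promoters these shares were 24.8%, 51.1% and 47.7%. Among peaks called in both ages they were 68.8%, 94.7% and 80.0%. The higher peaks lay farther from annotated starts, at a median of 22812 bp, than the lower, at 4861 bp, and the uncalled, at 11335 bp. Away from promoters these medians were closer, 29628, 24766 and 27651 bp.

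Promoters with H3K27me3 in YHSCs, where Polycomb keeps genes silent or poised, had more higher calls. Of 2648 promoter peaks over an H3K27me3 domain, 55 (2.08%) were higher and 19 (0.718%) lower, against 79 (0.735%) and 51 (0.475%) of the 10744 others. Their median YHSC signal was also lower, 1.65 against 4.36, and the part of this level in the difference was not tested. Osmr, Fam169a, Kcnb2 and Bmpr1a were among the higher and Lin28b, Igf2bp2 and Rps4l among the lower promoters with H3K27me3. Domains of H3K36me3, the mark of transcribed gene bodies, come from a table that names no age or sample and so are not particular to YHSCs. They covered 35.2% of the higher, 35.1% of the lower and 31.8% of the uncalled peaks away from promoters.

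The bases under the peaks were compared over 300-base windows at their centres, of which the 7 printed above are examples. Away from promoters, the median GC content was 46.7% for higher, 50.3% for lower and 48.3% for all windows, and the median number of CpGs 4, 5 and 4. At promoters the CpG medians were 16, 23 and 22. Both strands were searched, and a match is a run of letters, not a bound site. Away from promoters the AP-1 letters TGANTCA were found in 14.3% of higher, 9.57% of lower and 12% of all windows, the 1 match among the printed windows being at Rbm19. The GATA letters AGATAA were in 16.1%, 10.6% and 15.1%, and the RUNX letters TGTGGT in 25.4%, 22.3% and 24.6%.

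The SP/KLF and ETS letters, which hold a CpG, and the PU.1 letters, which hold none, were rarer and the IRF letters more frequent under the higher peaks than in all windows away from promoters. The SP/KLF letters CCGCCC were in 7.16% of higher, 16% of lower and 10.2% of all windows away from promoters, the ETS letters CCGGAA in 4.85%, 9.57% and 6.15%, and the IRF letters AAANNGAAA in 26.7%, 16% and 22%. The PU.1 letters GAGGAAGT were in 3.35%, 6.38% and 5.83%. Among peaks away from promoters that were called in both ages, the shares of higher and of all windows were closer for SP/KLF (10% and 12.2%), ETS (6.50% and 7.38%), IRF (25% and 23.2%) and PU.1 (4% and 6.07%). At promoters the PU.1 letters were in more of the higher than of all windows, 3.73% and 2.38%. No test was made of these shares, and their relation to the factors was not tested.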

How the data were processed

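H3K27ac ChIP-seq of 2 YHSC and 2 OHSC libraries was analysed beside mRNA-seq (4 YHSC, 8 OHSC) and ATAC-seq (4 and 4). Of OHSC ATAC-seq, 4 further count files matched no sample label used here and were left out. Per the methods, the authors trimmed reads with cutadapt, aligned them to mm10 with BWA, removed duplicates, multi-mapped reads and blacklisted regions, called narrow peaks with MACS, and deposited 1 signal value per library and peak after scaling each library to a fixed read number. The way signal was summed within peaks was not stated in the sources used here, and without counts no counting interval could be given. The deposited mRNA and ATAC tables hold raw counts per gene (STAR, featureCounts) and per region, with totals of 20475764 to 24654742 and 15427933 to 26260337 counts per library. Spike-in sequences, 6.05% to 6.93% of the mRNA counts, were left out. The authors' fold change columns hold their own comparison and were not used, nor were 8 columns of samples not labelled here, these ATAC-seq files among them.

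limma 3.58.1 in R 4.3.3 was fitted over all peaks, and over all genes after summing the peaks of each gene name, on log2(signal + 0.5) with age as the only term and a trend in the variance prior. A call needed a Benjamini-Hochberg adjusted p below 0.05. Every adjusted p of H3K27ac is from limma and every adjusted p of mRNA or ATAC from edgeR 4.0.16 (quasi-likelihood test, fold above 1.5, adjusted p below 0.05 for mRNA and 0.01 for ATAC). The fits were tested on simulated data. Peaks were joined to regions that shared at least 1 bp (bedtools 2.31.1), and to starts and bases of RefSeq on GRCm38.p6. Gene symbols matched mRNA for 15162 genes, and 80 more by an older symbol. H3K4me3 and H3K27me3 are peaks called in YHSCs, and the deposited H3K36me3 domains give no age.

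The text names the 5 peaks with the largest differences in each direction and the 3 of each class, the 10 genes with the largest differences in each direction, the 3 genes with the most higher or lower peaks, 8 genes of the study's text, the 2 highest and 2 lowest members of each list, and the 5 genes with the largest differences called in both H3K27ac and mRNA. The peaks and the 10 genes named for the largest differences were taken among limma calls whose OHSC and YHSC libraries did not overlap. Genes named from runs of peaks were added after their values were seen, as were the other called list members. Some list members are not reported here. The members and lists were chosen with earlier results of these data known. Alternatives changed the pseudocount, filter, scaling, variance prior, gene summary and test, left out each library, or added the replicate number as a block. A fit on peaks called in both ages was chosen after seeing the data.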

Additional observations from a re-analysis of the deposited data

Results flagged for a closer look

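Single mRNA-seq libraries stood apart from the others of their age for genes named above, by the gap of the highest or lowest library to its nearest neighbour over the range of the group (Dixon's ratio). Of 220 groups tested, 17 passed the critical value, and chance alone passes about 1 group in 20. With 2 libraries an age, the H3K27ac values could not be tested in this way. OHSC replicate 7 had the lowest value of Gm14137, 0.361 CPM, and the next library had 0.971 CPM. OHSC replicate 4 had the highest value of Cntn1, 13.5 CPM, and the next library had 9.78 CPM. OHSC replicate 5 had the lowest value of Map10, 2.72 CPM, and the next library had 3.98 CPM. OHSC replicate 2 had the highest value of Ltf, 17.2 CPM, and the next library had 1.48 CPM. OHSC replicate 3 had the highest value of Csf1r, 21.5 CPM, and the next library had 16.4 CPM. OHSC replicate 5 had the highest value of Il1r1, 38.2 CPM, and the next library had 29.9 CPM. OHSC replicate 4 had the highest value of Cntn5, 1.19 CPM, and the next library had 0.625 CPM. OHSC replicate 3 had the highest value of Ctss, 17.0 CPM, and the next library had 9.93 CPM. OHSC replicate 2 had the lowest value of Neo1, 61.4 CPM, and the next library had 78.4 CPM. OHSC replicate 5 had the lowest value of Plek, 181 CPM, and the next library had 219 CPM. YHSC replicate 2 had the highest value of Chrm3, 4.77 CPM, and the next library had 3.67 CPM. YHSC replicate 4 had the lowest value of Zbtb20, 199 CPM, and the next library had 223 CPM. YHSC replicate 4 had the highest value of Ntf3, 0.248 CPM, and the next library had 0.0935 CPM. YHSC replicate 2 had the highest value of Sptb, 4.07 CPM, and the next library had 2.72 CPM. YHSC replicate 3 had the highest value of Irf1, 260.0 CPM, and the next library had 243 CPM. YHSC replicate 1 had the highest value of Crebbp, 165 CPM, and the next library had 154 CPM. YHSC replicate 4 had the lowest value of Il1rapl2, 6.44 CPM, and the next library had 8.71 CPM. Ltf is a gene of granulocytes, and the granulocyte markers summed to 3.54 to 65.8 CPM over the OHSC libraries, while its H3K27ac peak was not called. What set these libraries apart was not tested, and edgeR's calls in mRNA were made over all libraries.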

How the results depend on the processing

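Against 1164 peaks and 292 genes called by limma, peaks called in both ages alone gave 243 and 90. Leaving out a library gave 91 to 4809 peaks and 22 to 1578 genes, lowest without OHSC replicate 2 and highest without YHSC replicate 1, and 5665 to 8152 peaks by the fold rule, against 4500 with all libraries. For genes, a variance prior without trend gave 168, promoter peaks alone 94, quantile normalization 544 (305 higher, 239 lower) and the same median signal 859. By the fold rule, a fold above 2 gave 1340 and peaks called in both ages 840. The labels number the libraries of both ages 1 and 2, but same-numbered libraries did not deviate together (r = 0.0199 over peaks). Whether they were prepared together was not stated in the sources used here, and this value cannot decide it. With the replicate number as a block, 1352 peaks and 189 genes were called. Quantile normalization moved the median log2 ratio of intergenic peaks from 0.13 to 0.015 and that of gene body peaks from 0.13 to 0.023. With the same median signal these were 0.040 and 0.036, and the promoter median went from -0.029 to -0.12. Without YHSC replicate 1 the promoter median was 0.070. The same median signal moved the ribosomal list to -0.029, and peaks of both ages moved the aging list to 0.20. Without a library each, list medians ranged over 0.0055 to 0.26 (self-renewal), 0.033 to 0.15 (AP-1), -0.081 to 0.089 (interferon), -0.057 to 0.088 (NF-kB), -0.10 to 0.045 (acetylation) and 0.029 to 0.14 (ribosomal). For the other lists the ranges were 0.24 to 0.40 (aging), 0.089 to 0.40 (synaptic), 0.043 to 0.24 (megakaryocyte), 0.049 to 0.22 (myeloid), -0.0003 to 0.20 (cytokine), 0.0026 to 0.21 (TGF-beta), -0.061 to 0.24 (erythroid), -0.024 to 0.16 (lymphoid), -0.015 to 0.10 (adhesion), -0.093 to 0.092 (lysosome) and -0.11 to -0.042 (cell cycle), while the median of all genes ranged over -0.068 to 0.082. The 140 named peaks and genes were read under the other pseudocounts and scalings, with peaks called in both ages alone, and without each library. Of these values, 1053 kept direction and call, 111 lost the call, 43 gained one and 9 changed sign. Of the 9, Il1rapl2, -0.050 with peaks of both ages, was called higher with all peaks. The others were the second Selp peak (-0.15 to 0.058), Cd36 (-0.33 to 0.013), Cntn5 (-0.65 to 0.028) and Pecam1 (-0.40 to 0.054) over the libraries left out, reversed without YHSC replicate 1 and for Selp also without OHSC replicate 1, and Acvr1 (0.029), Sptb (0.038) and Itgal (-0.060) with peaks of both ages. The counts of mRNA and ATAC calls stayed within 1.5 times under every alternative run. The causes of these changes were not tested, and 2 libraries an age with no counts limit the precision of every value.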
